A study of Mus musculus with 6 samples.

Results

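AMP-activated protein kinase (AMPK) was followed through the transcripts of its 7 subunit genes, Prkaa1, Prkaa2, Prkab1, Prkab2, Prkag1, Prkag2 and Prkag3, and of Stk11, which encodes the upstream kinase LKB1. These 8 genes were taken by symbol from the platform annotation, from probe sets that name a single gene, out of 18820 genes so named. Where a gene had more than 1 such probe set, the brightest was selected on its mean over the 6 arrays, so the levels themselves chose the probe set and are given as a description. All 8 lay above the level below which genes were not tested, so all 8 were among the 11292 genes tested. Expression was measured in C2C12 cells, a single immortalized mouse myoblast line that fuses into myotubes when serum is lowered. The 3 silenced arrays came from C2C12 cells transfected with a miRNA-382-5p silencer, a locked nucleic acid (LNA) oligonucleotide. The 3 control arrays came from C2C12 cells transfected with a negative control oligonucleotide. Both groups were differentiated in 2% horse serum, transfected with Lipofectamine RNAiMAX on day 6 at 50 nM LNA, and harvested 24 h later, on day 7. Whether the 3 samples behind each group were grown as separate cultures is not stated, so the p-values reflect the spread among these 6 samples, part of which may be technical.

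AMPK is a complex of a catalytic α, a scaffolding β and a nucleotide-binding γ subunit. It is switched on when AMP and ADP rise against ATP, through binding to γ and phosphorylation of the activation loop of α by LKB1 or by the calcium-dependent kinase CaMKK2. Active AMPK slows anabolic pathways and favours glucose uptake, fat oxidation and mitochondrial turnover. In skeletal muscle the α2, β2 and γ3 isoforms are prominent, and γ3 is largely confined to that tissue. Transcript levels do not measure the activity or the phosphorylation of the kinase.

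The mature microRNA that the oligonucleotide was made against is shown because it defines the silenced group, with its seed (bases 2 to 8) in capitals, from RefSeq, build GRCm38.p6, chr12:109733781-109733802, plus strand. Of 1738 mature mouse microRNAs in that table, 1 carries this seed, and it is miR-382-5p itself.
mmu-miR-382-5p: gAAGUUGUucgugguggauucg
These arrays do not measure the mature strand. The probe set of its precursor gene, Mir382, read 2.27, 2.28 and 1.99 in silenced arrays and 1.69, 1.99 and 1.76 in control arrays, on the log2 scale used throughout. All 6 values lie under the filter level of 3.87, and a precursor does not check an inhibitor of the mature strand.

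Myotube genes were expressed at high levels in both groups. All 10 myotube markers were tested and their mean levels over 6 arrays ran from 9.22 for Ckm upward to 12.25 for Acta1. Of 5 adipocyte markers, 4 (Adipoq, Plin1, Fabp4 and Lep) lay under the filter, and of the 4 named osteoblast and chondrocyte markers 3 (Sp7, Ibsp and Acan) did. The fibroblast genes Col1a1, Col1a2 and Dcn were above the filter in both groups, and so was the proliferation gene Mki67, at 9.36 in silenced and 9.45 in control arrays (means, n = 3 each). The other tested markers of undifferentiated or cycling myoblasts also lay above the filter. Their means over 6 arrays were 9.51 for Top2a, 7.37 for Myf5, 7.01 for Id1 and 5.83 for Pax7. The first principal component of the tested genes held 46.8% of the variance and set both arrays numbered 1 apart from the other 4, and the values of the members are therefore given by array.

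Among the 8 genes, Prkaa2, the α2 catalytic subunit, had the largest difference between silenced and control arrays, 1.37-fold higher in silenced cells. The γ3 gene Prkag3 was the other member whose 3 silenced values all lay above the 3 control values, 1.12-fold higher. The remaining 6 genes, Prkaa1, Prkab1, Prkab2, Prkag1, Prkag2 and Stk11, had overlapping groups. By limma, 0 of the 8 passed the threshold of 0.05 after Benjamini-Hochberg adjustment over all 11292 genes. The background for that call is 0% of genes tested in either direction (limma, smallest adjusted p = 0.487). Groups that do not overlap were seen for 11.8% of all tested genes. Split by direction, 6.94% of all tested genes were higher and 4.87% lower in silenced arrays without overlap. An unadjusted p under 0.05 was reached by 1 of the 8, Prkaa2, against 4.8% of all tested genes, or 10.3% with replicate number as a block. That Prkaa2 differed was already known when these genes were brought together.

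**Figure D1:**
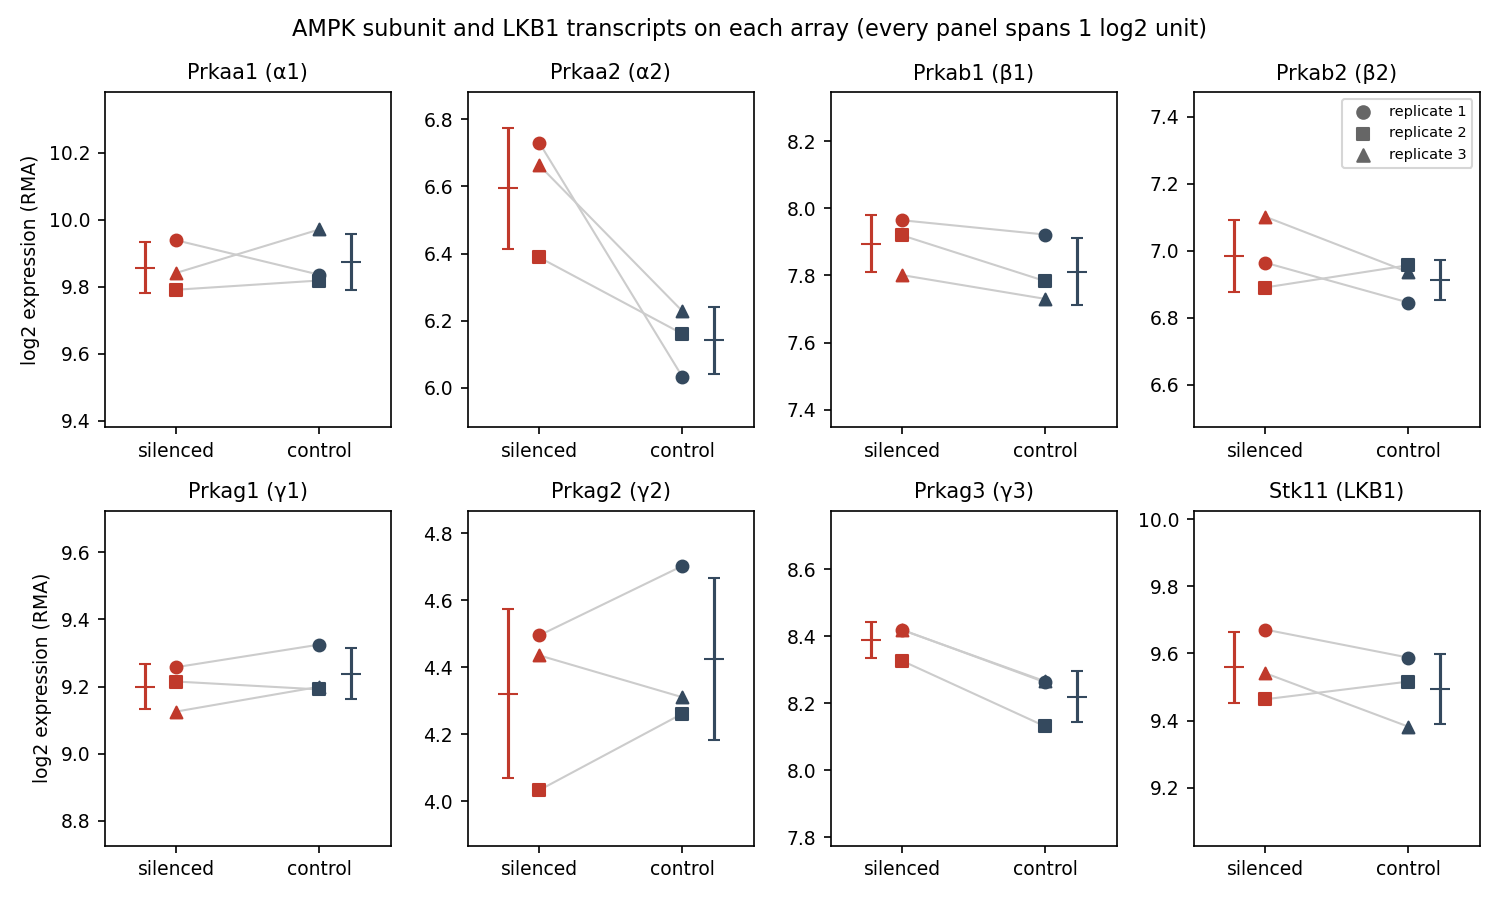
Log2 expression of the 8 genes on every array, with silenced arrays on the left and control arrays on the right of each panel, grey lines joining arrays of the same replicate number, and bars giving mean ± SD (n = 3). All panels span the same height, so that the separation of Prkaa2 and the smaller one of Prkag3 can be set against the overlap in the other 6.

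Stk11 encodes LKB1, the kinase that phosphorylates AMPK in resting and energy-stressed muscle. It lies on chr10:80115767-80130679 (GRCm38.p6). Its level was 9.67, 9.46 and 9.54 in silenced arrays and 9.59, 9.52 and 9.38 in control arrays. The groups overlapped, with silenced replicate 2 below control replicates 1 and 2. The difference was 0.06 ± 0.09 (SE), with a 95% confidence interval of -0.16 to 0.28 (limma, adjusted p = 0.927).

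Prkaa2 encodes α2, the catalytic isoform that predominates in adult skeletal muscle, and lies on chr4:105029649-105109898. Its level was 6.73, 6.39 and 6.66 in silenced arrays and 6.03, 6.16 and 6.23 in control arrays. The lowest silenced array, replicate 2, was above the highest control array, replicate 3, by less than the spread within the silenced group. The means were 6.59 ± 0.18 in silenced and 6.14 ± 0.10 in control arrays (SD, n = 3 each), a difference of 0.45 ± 0.11 (SE) with a 95% confidence interval of 0.19 to 0.72. The unadjusted limma p of 0.00457 was number 36 in rank among the 11292 genes, and the adjusted p was 0.871, so the difference did not pass the test. Its size exceeded that of 99.6% of tested genes. Within replicate numbers 1, 2 and 3 the difference was 0.70, 0.23 and 0.44, so the sign was the same in every pair while the size varied. In bulk RNA such a difference cannot be told apart from a change in the share of cells that carry the transcript. Without both arrays numbered 1 it was 0.33 (limma, adjusted p = 0.459).

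Prkaa1 encodes α1, the widely expressed catalytic isoform, on chr15:5143861-5181899. It read 9.94, 9.79 and 9.84 in silenced arrays and 9.84, 9.82 and 9.97 in control arrays. The groups lay on top of each other, with a difference of -0.018 ± 0.085 (SE) and a 95% confidence interval of -0.22 to 0.18 (limma, adjusted p = 0.980). Without both arrays numbered 1 it was -0.079. The upper bound for Prkaa1 stands just under the lower bound for Prkaa2. These intervals are not adjusted for the number of genes, and setting them side by side does not test the isoforms against each other.

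The β subunits hold α and γ together and carry a glycogen-binding module. Prkab1 (β1, chr5:116013586-116024503) read 7.96, 7.92 and 7.80 in silenced arrays and 7.92, 7.78 and 7.73 in control arrays. Each silenced array was above the control array of its own number, by 0.043, 0.14 and 0.071, but the groups overlapped because the numbers themselves differed. The difference was 0.08 ± 0.09 (SE), with an interval of -0.13 to 0.29 (limma, adjusted p = 0.898). Prkab2, the β2 isoform abundant in muscle (chr3:97658211-97673812), read 6.96, 6.89 and 7.10 in silenced arrays and 6.85, 6.96 and 6.94 in control arrays. Silenced replicate 3 was highest and control replicate 1 lowest, and the other 4 arrays were interleaved. The difference for Prkab2 was 0.07 ± 0.09 (SE), with an interval of -0.13 to 0.28 (limma, adjusted p = 0.907).

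The γ subunits bind AMP, ADP and ATP and so sense the energy state. Prkag3 (γ3, chr1:74738922-74749471) read 8.42, 8.33 and 8.42 in silenced arrays and 8.26, 8.13 and 8.27 in control arrays. The groups did not overlap, and the pairs of equal number differed by 0.16, 0.20 and 0.15, the narrowest range of pair differences among the 3 members that were higher in every pair (Prkaa2, Prkab1 and Prkag3). A higher level in all 3 pairs was found for 19.7% of tested genes. The means were 8.39 ± 0.05 in silenced and 8.22 ± 0.08 in control arrays (SD, n = 3 each), a difference of 0.17 ± 0.08 (SE) whose interval, -0.021 to 0.36, reached 0 (limma, adjusted p = 0.871).

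Prkag1, the widely expressed γ1 isoform on chr15:98812797-98831508, read 9.26, 9.21 and 9.13 in silenced arrays and 9.33, 9.19 and 9.20 in control arrays. The groups overlapped, with a difference of -0.039 ± 0.082 (SE) and an interval of -0.23 to 0.15 (limma, adjusted p = 0.953). It was the 1 member with a second single-gene probe set. That probe set, not chosen because it was dimmer, read 3.88, 4.07 and 4.11 in silenced arrays and 3.88, 3.96 and 3.97 in control arrays, a difference of 0.08 ± 0.09 (SE) in the opposite direction. Neither probe set separated the groups.

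Prkag2 (γ2, chr5:24862735-25106282), known for mutations that cause a glycogen storage cardiomyopathy in humans, was the member closest to the filter level. It read 4.50, 4.03 and 4.44 in silenced arrays and 4.70, 4.26 and 4.31 in control arrays. Its spread within groups, 0.25 in silenced and 0.24 in control arrays (SD, n = 3 each), was the widest of the 8 genes. The difference was -0.10 ± 0.16 (SE), with an interval of -0.49 to 0.28 (limma, adjusted p = 0.932). Without both arrays numbered 1 it was -0.052.

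**Figure D2:**
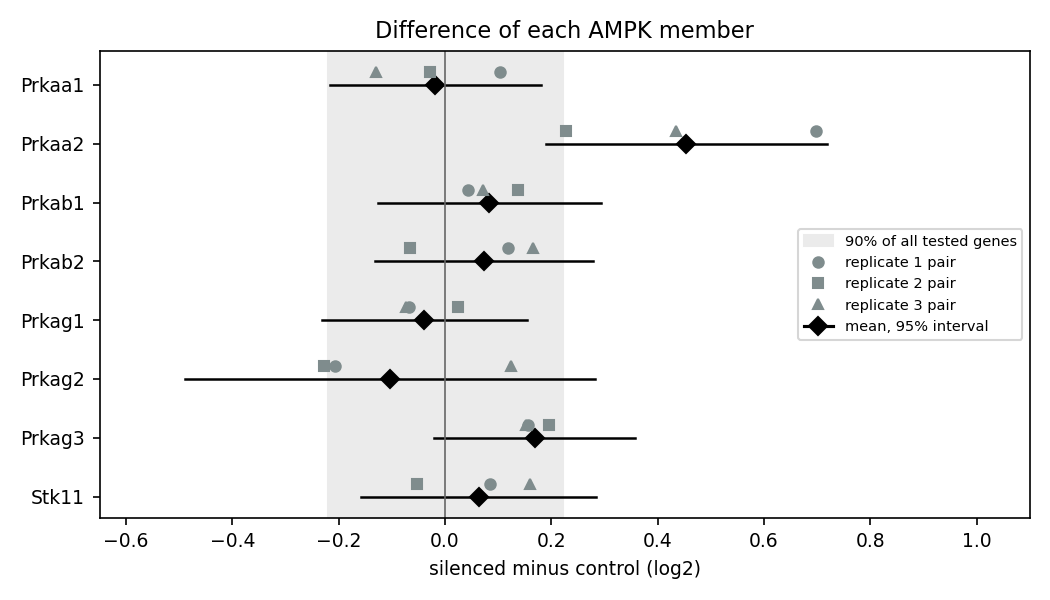
Silenced minus control on the log2 scale for each gene. Diamonds and lines give the mean and limma's 95% confidence interval, small symbols the 3 differences within replicate numbers, and the grey band the range that holds 90% of all tested genes (up to 0.22 either side of 0). Prkaa2 lies outside the band, with an interval from 0.19 to 0.72, and the other 7 means lie inside it.

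Isoforms of the same subunit were compared through their difference within each array, because the levels of different probe sets depend on their own probes and cannot be set against each other. A probe effect that is the same on every array drops out when arrays are compared. Compression of differences in dim genes does not, which limits the pairs with Prkag2, the member closest to the filter level. There were 5 isoform pairs. With 3 arrays against 3 the exact 2-sided permutation test allows no p under 0.1, so none could pass 0.05.

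In the catalytic pair, Prkaa2 minus Prkaa1 was -3.21, -3.40 and -3.18 in silenced arrays and -3.80, -3.66 and -3.74 in control arrays. The 3 silenced arrays lay apart from the 3 control arrays, and the α2 to α1 balance was higher in silenced cells by 0.47 ± 0.08 (SE; 1.39-fold). The exact permutation p was 0.1, the smallest this design can give, and 0.25 after adjustment over the 5 pairs. The gap between the groups was wider here than for Prkaa2 alone. Prkaa1 contributed little to its size, with a difference of -0.018 on the same scale.

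In the nucleotide-binding subunit, Prkag3 minus Prkag1 was -0.84, -0.89 and -0.71 in silenced arrays and -1.06, -1.06 and -0.93 in control arrays. These groups did not overlap either, with a shift of 0.21 ± 0.07 (SE; exact permutation p = 0.1, adjusted 0.25). Most of that shift was the 0.17 of Prkag3 itself, and its size depended on the Prkag1 probe set. With the Prkag1 probe sets averaged it was 0.15 (exact permutation p = 0.1). Prkag3 minus Prkag2 shifted by 0.27 ± 0.17 (SE) with overlapping groups (exact permutation p = 0.2, adjusted 0.333). Prkag2 minus Prkag1 shifted by -0.064 ± 0.181 (SE), also with overlap (exact permutation p = 0.8, adjusted 1). The scaffolding pair showed no separation: Prkab2 minus Prkab1 ran from -1.03 to -0.70 in silenced arrays and from -1.08 to -0.79 in control arrays, a shift of -0.011 ± 0.138 (SE; exact permutation p = 1).

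**Figure D3:**
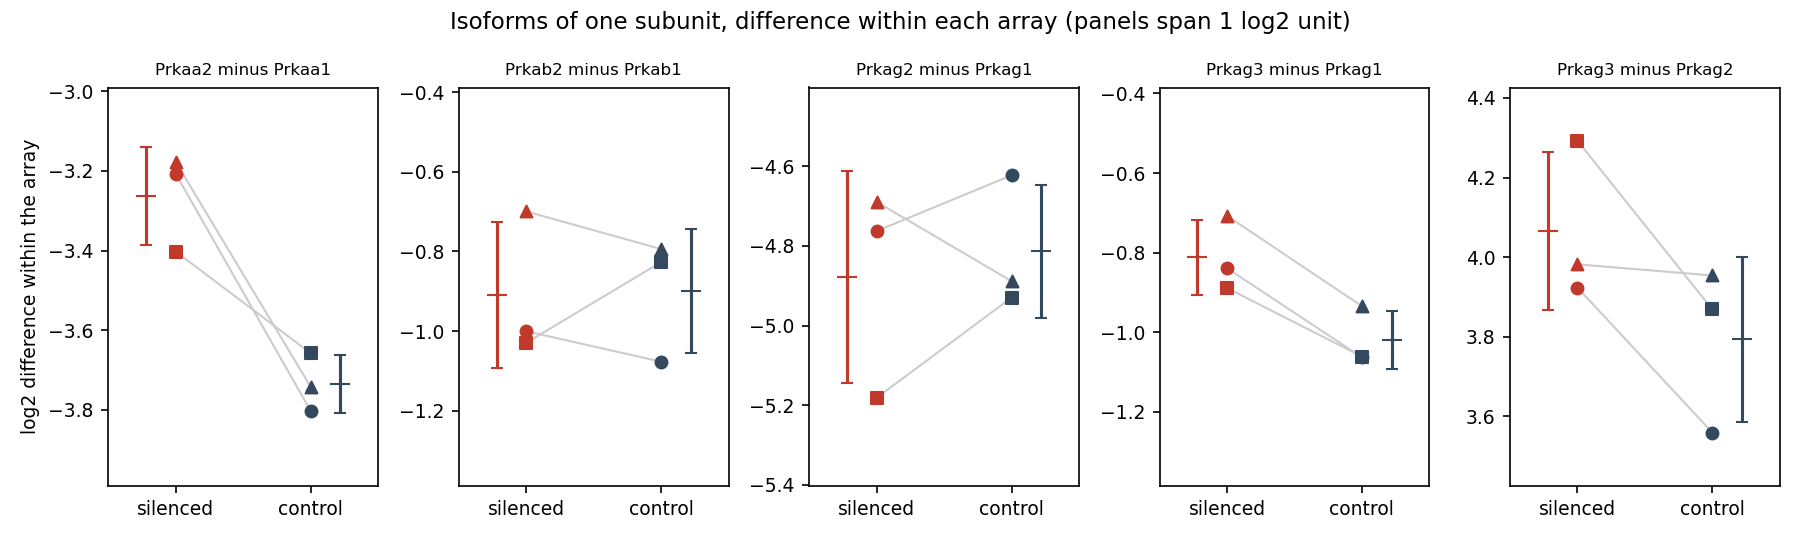
Difference between isoforms of the same subunit within each array (log2), silenced arrays on the left and control arrays on the right, with the symbols and bars of the plot of levels. Prkaa2 minus Prkaa1 and Prkag3 minus Prkag1 separate the groups, by 0.47 and 0.21, and the other 3 pairs overlap.

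The members also differed between replicate numbers. The range of the 3 means by replicate number exceeded the difference between the group means for 6 of the 8 genes, a share near the 77.4% over all tested genes. The exceptions were Prkaa2, with a range of 0.17 against a difference of 0.45, and Prkag3, with 0.11 against 0.17. Both arrays numbered 1 were above the other 4 for Prkab1, Prkag1, Prkag2 and Stk11, a pattern seen for 16% of tested genes. No member had both arrays numbered 1 below the other 4, as 15.3% of tested genes did. Prkag2 had the widest range, 0.45, with means of 4.60, 4.15 and 4.37 for numbers 1, 2 and 3.

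The members did not all vary together across the 6 arrays. As a description over 6 arrays, which share their groups and replicate numbers, Prkaa2 correlated with Prkag3 at r = 0.85 and with Prkab2 at r = 0.69, but with Prkaa1 at r = 0.23. Prkab2 and Prkag1 ran in opposite directions (r = -0.83), and Stk11 went most closely with Prkab1 (r = 0.72). Among all tested genes, those most like Prkaa2 were Taf3, a subunit of the general transcription factor TFIID (r = 0.991), Dnajc5, a vesicle cochaperone (r = 0.990), Setd5 (r = 0.984), the membrane channel gene Panx1 (r = 0.979) and the centriole gene C2cd3 (r = 0.978). There were 24 genes with r over 0.95. The differences of these 5 genes between silenced and control arrays ran from 0.13 to 0.26, smaller than the 0.45 of Prkaa2. They were picked for following Prkaa2 on these same arrays, so their higher level in silenced arrays comes with that choice and is no separate result.

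Levels of muscle genes stood beside those of Prkaa2 and Prkag3. Of the 10 myotube markers, 8 had a higher mean in silenced arrays and 0 passed limma's adjusted threshold, with a median difference of 0.10. Their summed level, as the mean deviation from each gene's own average, was -0.048, 0.015 and 0.20 in silenced arrays and -0.093, -0.094 and 0.016 in control arrays. The groups overlapped in this score, since silenced replicates 1 and 2 lay below control replicate 3. Of single markers, Myh1, an adult fast myosin, read 11.19, 11.16 and 11.36 in silenced arrays and 10.96, 10.82 and 10.84 in control arrays, and the fusion gene Mymk 11.38, 11.39 and 11.44 against 11.25, 11.16 and 11.12. Both had groups that did not overlap, as did Myh3 and Des, so that 4 of the 10 were higher without overlap, where 6.94% of all tested genes were. An unadjusted limma p under 0.05 was reached by 3 of the 10, Myh1, Myh3 and Mymk, all higher in silenced arrays. At that level 2.83% of all tested genes were higher. These 3 differed by 0.36 ± 0.09 (SE), 0.26 ± 0.08 (SE) and 0.22 ± 0.08 (SE). In rank by unadjusted limma p among the 11292 genes, Myh1 was number 39 and Prkaa2 number 36. Of the 2 markers with a lower mean, Mb, the myoglobin gene, differed by -0.21 ± 0.23 (SE), with -0.12, -0.23 and -0.29 within replicate numbers 1, 2 and 3, and Myog, a myogenic regulator, by -0.040 ± 0.129 (SE). The same score for undifferentiated and cycling myoblast markers (5 tested) ran from -0.20 to 0.080 in silenced and from -0.085 to 0.092 in control arrays, and for fibroblast markers (4 tested) from -0.18 to 0.19 and from -0.20 to 0.089. Among the 5 myoblast markers, only Pax7 had groups that did not overlap. It read 5.91, 5.97 and 5.92 in silenced arrays and 5.57, 5.80 and 5.78 in control arrays. Its difference was 0.22 ± 0.09 (SE; limma, unadjusted p = 0.0461, adjusted p = 0.871). Id1 differed by 0.011 ± 0.097 (SE). The other 3, Myf5, Mki67 and Top2a, differed by -0.21 ± 0.12 (SE), -0.090 ± 0.202 (SE) and -0.17 ± 0.23 (SE), with overlap. The part of the myotube genes in the Prkaa2 and Prkag3 differences was not tested.

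Of the wider AMPK pathway, 72 genes in 6 lists, 66 were named by a probe set of their own and 60 of them were tested. Of these 60, 0 passed limma's adjusted threshold in either direction, while 2 had an unadjusted p under 0.05, both higher in silenced arrays, where 2.83% of all tested genes were higher and 1.97% lower at that level. There were 35 with a higher and 25 with a lower mean in silenced arrays, against 52.7% higher over all tested genes. The median difference was 0.031, against 0.0089 over all tested genes. The 3 silenced values all lay above the 3 control values for 8 of the 60 genes and all below for 1, Fnip1, where the shares over all tested genes were 6.94% and 4.87%. With replicate number as a block the unadjusted p was under 0.05 for 5 of the 60, where 10.3% of all tested genes were. These were Rptor, Tsc2, Sik1 and Ckb, higher in silenced arrays, and Cd36, lower, and 0 passed after adjustment (limma, smallest adjusted p = 0.464 among them).

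The 2 genes with an unadjusted p under 0.05 without the block were Rptor and Tsc2, a share of the 60 near the 2.83% over all tested genes. Both encode AMPK substrates of mTORC1 signalling, which was not tested as a group. Rptor encodes raptor, the mTORC1 scaffold that AMPK phosphorylates, and read 8.88, 8.77 and 8.93 in silenced arrays and 8.54, 8.50 and 8.61 in control arrays. Its groups were apart and the pair differences, 0.33, 0.28 and 0.32, close to each other, with a difference of 0.31 ± 0.08 (SE; limma, unadjusted p = 0.00614, adjusted p = 0.871). Tsc2, which encodes tuberin, an inhibitor of mTORC1 signalling and also a substrate, read 8.21, 8.45 and 8.48 in silenced arrays and 8.20, 8.12 and 8.11 in control arrays. The difference of Tsc2 was 0.24 ± 0.10 (SE; limma, adjusted p = 0.871), but within replicate number 1 it was 0.015, against 0.33 and 0.37 in the other pairs. Tbc1d1, a regulator of glucose transporter traffic, differed by 0.16 ± 0.09 (SE) with overlapping groups. The 18 tested substrates as a list had 10 higher and 8 lower means and a median of 0.019, which was 0.10 without silenced replicate 2 and 0.000835 without control replicate 3. Among them Acaca, the acetyl-CoA carboxylase of fat synthesis, differed by 0.0090 ± 0.0863 (SE), and Ppargc1a, the coactivator of mitochondrial biogenesis, by -0.053 ± 0.148 (SE). These 2 were chosen after their values were seen.

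LKB1 acts in a complex with a STRAD pseudokinase and an MO25 scaffold. Strada, a STRAD gene, read 7.74, 7.58 and 7.62 in silenced arrays and 7.46, 7.48 and 7.45 in control arrays, a difference of 0.18 ± 0.08 (SE; limma, adjusted p = 0.871) with groups apart. The MO25 genes Cab39 and Cab39l differed in the other direction, by -0.14 ± 0.09 (SE) and -0.14 ± 0.10 (SE), with overlap. Of the 6 tested genes of this list, which also holds the AMPK kinases Camkk2 and Map3k7, 2 had a higher and 4 a lower mean and 0 were called, with a median of -0.080 (-0.043 without control replicate 1).

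Other kinases of the AMPK-related family, most of them activated by LKB1, had 7 higher and 2 lower means among 9 tested, and 0 called, with a median of 0.11. Sik1 differed by 0.19 ± 0.10 (SE), Mark2 by 0.13 ± 0.08 (SE) and Sik3 by 0.13 ± 0.08 (SE), and of the 9 Sik3 alone had groups apart.

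Regulators of AMPK include the sestrins, folliculin and its partners and the adiponectin receptors. Their 11 tested genes had 6 higher and 5 lower means, 0 called and a median of 0.014. Estimates ran from -0.077 (Fnip1) to 0.067 (Adipor1), but some were imprecise. Sesn2 differed by -0.072 ± 0.349 (SE), with a 95% confidence interval of -0.89 to 0.74. Fnip1, a folliculin partner that binds AMPK, read 8.48 ± 0.05 in silenced and 8.56 ± 0.03 in control arrays (SD, n = 3 each). Its 3 silenced values all lay below the control values, with a difference of -0.077 ± 0.075 (SE; limma, adjusted p = 0.889). Adipor1 and Flcn differed by 0.07 ± 0.07 (SE) and 0.05 ± 0.08 (SE).

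Enzymes that set the adenylate and phosphocreatine pools had 6 higher and 4 lower means among 10 tested, 0 called and a median of 0.038. Ckb, the brain-type creatine kinase, read 10.14, 9.99 and 9.93 in silenced arrays and 9.82, 9.90 and 9.66 in control arrays. Its difference was 0.23 ± 0.10 (SE; limma, adjusted p = 0.871), while the muscle creatine kinase gene Ckm differed by 0.03 ± 0.16 (SE). The AMP deaminase genes Ampd2 and Ampd3 differed by 0.15 ± 0.08 (SE) and 0.17 ± 0.10 (SE).

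Genes that AMPK activation is known to raise in muscle showed no common direction. Of 7 tested, 4 had a higher and 3 a lower mean, 0 were called and the median was 0.0033. Cd36, the fatty acid transporter, read 7.44, 7.36 and 7.42 in silenced arrays and 7.92, 7.43 and 7.75 in control arrays, a difference of -0.29 ± 0.13 (SE; limma, adjusted p = 0.871). The groups of Cd36 overlapped, since control replicate 2 lay just below silenced replicate 1. Pdk4, which restrains pyruvate oxidation, differed by 0.18 ± 0.17 (SE) and Lpl, the lipoprotein lipase, by -0.25 ± 0.25 (SE). Slc2a4, the insulin- and contraction-responsive glucose transporter, lay under the filter, and Cpt1b had no single-gene probe set. This list's median was 0.10 without silenced replicate 2, -0.093 without silenced replicate 3, -0.16 without control replicate 1 and 0.13 without control replicate 2. The median of the regulators also turned, to -0.035 without control replicate 1 and -0.031 without silenced replicate 3.

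**Figure D4:**
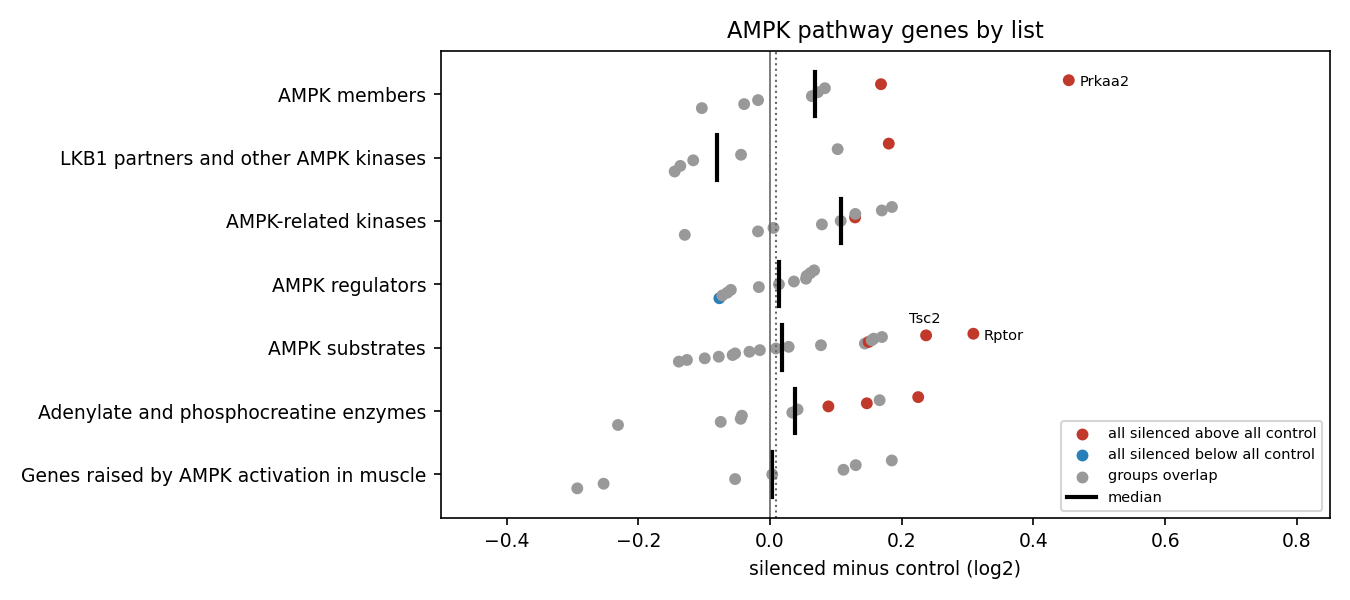
Silenced minus control (log2) for every tested gene of the 8 members and the 6 pathway lists, with a black bar at each list's median and a dotted line at the median of all tested genes (0.0089). Genes with an unadjusted p under 0.05 in the fit without a block are named: Prkaa2, Rptor and Tsc2, all above 0.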

How the data were processed

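The deposited table holds log2 expression values of 35556 probe sets on 6 single-colour Affymetrix whole-transcript arrays (3 silenced, 3 control). These log2 values were made by the authors with RMA, according to the labels, per the submitters' processing notes; the sources used here do not name its version or probe set definition. RMA corrects background, equalizes array distributions and summarizes probes on the log2 scale, and it compresses differences of dim genes. Values were used as deposited. Detection calls were not used here, and precision is limited by having 6 arrays.

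Gene names came from the platform annotation: 21218 name a single gene and 1881 several. Genes with a mean over 6 arrays above the 40th percentile (3.87) were tested, 11292 of 18820. Silenced and control were tested by limma 3.58.1 under R 4.3.3 (lmFit and then eBayes, 2-sided, no covariate), with Benjamini-Hochberg adjustment over all tested genes and a threshold of 0.05. The script was tested on simulated data with shifts larger than any member difference and no effect of replicate number. That checks the code and not the recovery of differences of the size reported here. Gene positions are from RefSeq, GRCm38.p6.

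The members and lists were chosen with earlier results of these data known. Named are all members, the 3 genes of smallest p in each list, the markers, and the 5 genes most correlated with Prkaa2; others (Acaca, Ppargc1a, Ak4, Sesn2 and Vegfa) were chosen after their values were seen. Arrays of the same number deviated together from their group means (r = 0.55, 0.35 and 0.42 for numbers 1, 2 and 3), which no label explains. The main test and the isoform tests leave the numbers out; they enter as differences within numbers and as a block in an alternative fit. Alternatives were the replicate block, filters, probe set averaging, renormalization, centring, other variance models and leaving out arrays.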

Additional observations from a re-analysis of the deposited data

How the results depend on the processing

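Under 15 alternatives, Prkaa2 kept its direction, with differences from 0.33 (without both arrays numbered 1) to 0.56 (without silenced replicate 2), and limma's adjusted p ran from 0.459 to 1.00. Prkag3 (0.12 to 0.20), Prkab1 (0.042 to 0.14), Prkab2 (0.015 to 0.12) and Stk11 (0.0068 to 0.11) kept their sign too, the last 3 with sizes that single arrays decided, and 0 genes of the whole table passed the adjusted threshold under any of the 15. The number of members whose groups do not overlap was 2 or 3, while the share of all tested genes ran from 10.9% to 43.5% (43.5% without both arrays numbered 1, where 3 of the 8 is under that share). With the replicate number as a block 0 genes were called, Prkaa2 had an adjusted p of 0.464 and Prkag3 of 0.490, and the block changed no call; the share of genes with an unadjusted p under 0.05 was 10.3% with it and 4.8% without. Among members and isoform pairs, signs turned for small differences: Prkag1 was 0.020 with its probe sets averaged. With 1 array left out at a time Prkaa1 ran from -0.059 to 0.030 (above 0 without silenced replicate 2 or control replicate 3), Prkag1 from -0.069 to 0.0039 (without control replicate 1), Prkag2 from -0.19 to 0.040 and Prkag2 minus Prkag1 from -0.16 to 0.088 (both without silenced replicate 2 or control replicate 1), and Prkab2 minus Prkab1 from -0.12 to 0.049 (above 0 without any of silenced 1, silenced 2, control 2 and control 3, left out singly); the cause was not tested. With the filter at the 60th percentile, which keeps fewer genes and leaves Prkag2 untested, the median of the substrates was 0.14 over 13 genes and that of the LKB1 partners and AMPK kinases -0.044. With 3 arrays a group, the 95% intervals reached 0.19 to 0.22 either side of the mean for the members other than Prkaa2 (0.26) and Prkag2 (0.39), which limits what could be detected.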

Other observations

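Several genes of the AMPK pathway, chosen here after their values were seen, varied much more by replicate number than by oligonucleotide. Ak4, a mitochondrial adenylate kinase, read 6.91, 4.50 and 5.12 in silenced arrays and 6.31, 5.00 and 5.36 in control arrays, so both arrays numbered 1 were highest. The stress-induced sestrin gene Sesn2 ran the other way, with 7.08, 8.25 and 8.19 in silenced arrays and 7.40, 8.24 and 8.10 in control arrays. Vegfa, the angiogenic growth factor gene, was also lowest in the arrays numbered 1, at 9.51 in silenced and 9.59 in control arrays, against 10.13 to 10.32 in the other 4. Of the 60 tested pathway genes, 44 had a range between replicate numbers larger than their difference between groups, a share near the 77.4% of all tested genes, and 11 had both arrays numbered 1 above and 13 below the other 4. Over all tested genes these shares were 16% above and 15.3% below.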
